A study of Gallus gallus with 12 samples.

Results

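The receptors *CXCR4*, *KIT*, *S1PR1* and *PDGFRA* and the ligands *CXCL12* and *KITLG*, a list drawn up for primordial germ cell (PGC) migration, were examined in chicken PGCs. Their part in migration was not tested here. The genes were taken by name from the deposited expression table, and all 6 names were found among its 24356 genes. RNA had been sequenced from SSEA-1-positive PGCs that were sorted from the blood of embryos at E2.5 (circulating PGCs, cPGCs) and from the gonads at E4.5 and E6.5 (gonadal PGCs, gPGCs). At each stage, female (ZW) and male (ZZ) PGCs gave 2 libraries each, every library from a pool of 6 to 14 embryos. The 12 libraries therefore held 8 of gPGCs and 4 of cPGCs. SSEA-1 is a cell surface antigen, so PGCs without it were not sampled. The stage and the place the cells were taken from changed together and cannot be told apart.

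Chicken PGCs travel to the gonads through the bloodstream, leave the vessels near the gonads and settle there. CXCR4 is a chemokine receptor that steers migrating germ cells towards its ligand CXCL12, which tissues near their target make. KIT is a receptor tyrosine kinase that, with KITLG (stem cell factor), supports the survival and movement of mouse PGCs. S1PR1 senses sphingosine-1-phosphate, a lipid rich in blood that draws lymphocytes out of tissues in mice, and PDGFRA is the receptor for PDGF-A and a widely used marker of mesenchymal cells.

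All but *PDGFRA* of the 6 genes were read in every library, and *PDGFRA* was at or near 0 reads. In transcripts per 1000000 (TPM), a level that is corrected for gene length, *CXCR4* was the most abundant, with 174 ± 80.3 TPM in gPGCs and 283 ± 23.1 TPM in cPGCs (SD, n = 8 and 4). *KIT* followed with 44.7 ± 28.7 TPM in gPGCs and 61.4 ± 16.3 TPM in cPGCs. *CXCL12* averaged 22.2 ± 10.4 TPM in gPGCs and 19.6 ± 9.66 TPM in cPGCs, and *S1PR1* 10.3 ± 6.25 TPM in gPGCs and 21.8 ± 5.54 TPM in cPGCs. *KITLG* was low, with 3.84 ± 3.60 TPM in gPGCs and 3.30 ± 1.04 TPM in cPGCs. *CXCR4* lay above *KIT* in 11 of 12 libraries, and *KIT* above *CXCL12* in 11 of 12 and above *S1PR1* in 12 of 12. *CXCL12* and *S1PR1* changed places, with *CXCL12* the higher in 8 of 12 libraries, among them every E6.5 library. *S1PR1* was the higher in both E2.5 female pools, the second E2.5 male pool and the first E4.5 male pool. The order of these neighbours was not tested. Between receptor and ligand, *CXCR4* was above *CXCL12* and *KIT* above *KITLG* in 12 of 12 libraries.

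**Figure D1:**
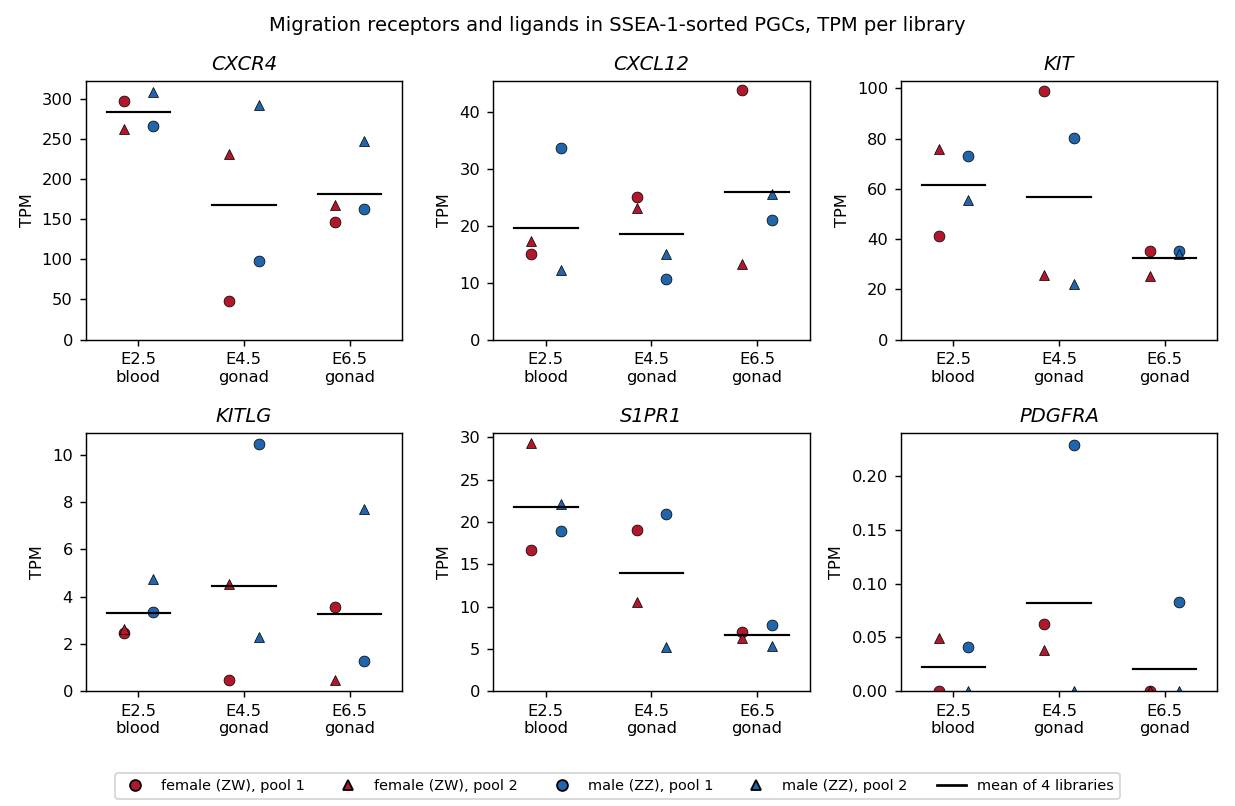
TPM (vertical axis, linear, a separate scale for each gene) of the 6 genes in each of the 12 libraries, by stage (horizontal axis), with females in red, males in blue, first pools as circles, second pools as triangles and the mean of a stage as a line. *CXCR4*, *KIT* and *S1PR1* were lower in every E6.5 library than in any E2.5 library, as were 8.37% of the genes tested. At E4.5 the 2 first pools lay far from the 2 second pools for these 3 genes.

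Between 7185031 and 13749166 reads fell on genes in each library (median 11351000). The first E4.5 pools were the shallowest, with 7185031 reads in females and 7566925 in males, and they also stood apart by gene length. Among genes longer than 5000 bases, the median of log2(TPM + 1) in the first pool minus that in the second was 1.06 in E4.5 females and 1.22 in E4.5 males, against -0.03 and -0.02 for genes of over 1000 and up to 2000 bases. For the same long genes it was -0.77 in E2.5 females, -0.13 in E2.5 males, 0.21 in E6.5 females and 0.26 in E6.5 males. Several results below are given with and without these 2 libraries. A fit without both leaves 1 library in each E4.5 group, and not every call that changed in it is given. Of 12 listed germ cell genes, 11 were found. *DAZL*, with 1621 to 2525 TPM in gPGCs and 1848 to 2536 TPM in cPGCs, was high in every library. So was *DDX4*, with 135 to 405 TPM in gPGCs and 161 to 680 TPM in cPGCs. *PRDM1* had 1.25 to 3.8 TPM in gPGCs and 5.15 to 8.23 TPM in cPGCs, lower without overlap, as were 1.95% of genes. *LIN28A* (0.95 to 36.5 and 5.62 to 25.8 TPM) and *TDRD9* (15.7 to 84.1 and 14.7 to 84.2 TPM) overlapped. On the log2 scale the median difference of the 11 was -0.42 in gPGCs against cPGCs, beside -0.09 for all genes. Of 15 listed erythroid genes, 9 were found. Their summed share of all TPM was 0.0059% to 0.0527% in gPGCs and 0.171% to 11.3% in cPGCs, with the globins *HBZ* and *HBE* highest in cPGCs and *HBBA* at 0 in every library. Of 9 endothelial genes, 8 were found, summing to 5.51 to 21.4 TPM in gPGCs and 18.3 to 27.9 TPM in cPGCs. All 14 genes of the gonadal and mesonephric mesenchyme were found, summing to 10.7 to 36.2 TPM in gPGCs and 6.60 to 13.4 TPM in cPGCs, of which *COL3A1* made 7.77 to 27.6 TPM in gPGCs and 3.55 to 10.2 TPM in cPGCs, while *NR5A1*, *GATA4* and *PDGFRB* stayed below 1 TPM. All 8 leukocyte genes were found, summing to 11.7 to 29.2 TPM in gPGCs and 14.5 to 45.7 TPM in cPGCs. The 7 thrombocyte genes, all found, summed to 3.07 to 14.4 TPM in gPGCs and 5.79 to 9.59 TPM in cPGCs. The part of these other cells in the values below was not tested. In sorted pools, fewer cells of a type and less RNA per cell cannot be told apart.

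*CXCR4* (ENSGALG00000012357) lies on chromosome 7 of GRCg6a at chr7:30761616-30764299, on the minus strand. In E2.5 cPGCs it had 296 and 262 TPM in females and 266 and 309 TPM in males, a tight range. In E4.5 gPGCs it had 47.7 and 231 TPM in females and 97.5 and 291 TPM in males, and in E6.5 gPGCs 147 and 167 TPM in females and 163 and 248 TPM in males. The first E4.5 pools were the lowest of all 12 libraries in each sex, while the second E4.5 pools lay near the cPGCs. *CXCR4* ranked above 96.8% to 97.6% of all genes in cPGCs, and above 87.0% to 97.0% in gPGCs.

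Tested with limma on log2(TPM + 1) in all 12 libraries, *CXCR4* differed by -0.87 ± 0.38 (log2 fold change ± SE) between gPGCs and cPGCs, with an adjusted p of 0.309 over 14154 genes. Its unadjusted p in the same fit was 0.0398. An exact permutation test of the single gene (two-sided, smallest possible p 0.00404) gave p = 0.0162, and p = 0.141 after median-of-ratios scaling, which sets the typical gene to no change. Without the first E4.5 pools the difference was -0.40 ± 0.17, with an adjusted p of 0.135 (limma). At E6.5 against E2.5 the log2 fold change of *CXCR4* was -0.67 ± 0.44, with an adjusted p of 0.472. The difference at E4.5 against E2.5 was -1.08 ± 0.44 (adjusted p = 0.39, limma), against -0.12 ± 0.22 without the first E4.5 pools and 0.21 when median-of-ratios scaling was added to that.

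*CXCL12* (ENSGALG00000041346, chr6:19850341-19864037, minus strand) encodes the chemokine that CXCR4 binds. It had 15.1 and 17.4 TPM in females and 33.7 and 12.2 TPM in males at E2.5, 25.1 and 23.2 TPM in females and 10.7 and 15.1 TPM in males at E4.5, and 43.8 and 13.3 TPM in females and 21.0 and 25.6 TPM in males at E6.5. These values came from 96 to 646 reads a library. The stages overlapped, and pools of the same sex and stage differed up to 3.28-fold, as they did in E6.5 females. The log2 fold change of gPGCs against cPGCs was 0.16 ± 0.35, with an adjusted p of 0.883 (limma), and the exact permutation p was 0.687. Its sign turned to -0.05 without the first E6.5 female pool, to -0.19 without the second E2.5 male pool and to -0.23 in males alone. The ratio of *CXCR4* to *CXCL12* in TPM ran between 1.91 and 19.3 in gPGCs, with a median of 9.40, and between 7.88 and 25.3 in cPGCs, with a median of 17.4.

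*KIT* (ENSGALG00000038634, chr4:65269770-65321836, minus strand), with 5043 bases the longest of the 6 genes, had 41.1 and 75.9 TPM in females and 73.1 and 55.6 TPM in males at E2.5. At E4.5 it had 99.0 and 25.8 TPM in females and 80.3 and 22.1 TPM in males. At E6.5 it had 35.2 and 25.2 TPM in females and 35.3 and 34.2 TPM in males. The E6.5 libraries were all below the E2.5 libraries, as they were for 8.37% of the genes tested. At E4.5, in contrast, the first pools were the highest of all 12 libraries and the second pools were among the lowest 3.

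The first E4.5 pool held 3.83 times as much *KIT* as the second in females and 3.63 times as much in males. On the log2 scale these differences were 1.90 and 1.81, against medians of 1.06 and 1.22 for all genes of over 5000 bases. Over all 12 libraries, *KIT* had a log2 fold change of -0.61 ± 0.40 in gPGCs against cPGCs, with an adjusted p of 0.525 (limma) and an exact permutation p of 0.178, which was 0.0485 without the first E4.5 female pool. Without the first E4.5 pools the log2 fold change was -1.08 ± 0.23. Each of the other 6 gonadal libraries then lay below each cPGC library, as they did for 6.80% of genes. The pools left out, a choice made after the data were seen, were the only gonadal libraries above any cPGC library in *KIT*. Leaving them out therefore fixed this order, which cannot count as a test. At E6.5 against E2.5 the log2 fold change was -0.87 ± 0.46 (adjusted p = 0.369, limma). The E4.5 pools are on neither side of that comparison, so leaving them out changed only the shared estimate of the spread.

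*KITLG* (ENSGALG00000011206, chr1:43015486-43066975, minus strand), the gene of the KIT ligand, had 2.47 and 2.63 TPM in females and 3.35 and 4.75 TPM in males at E2.5. At E4.5 it had 0.471 and 4.55 TPM in females and 10.4 and 2.29 TPM in males, and at E6.5 3.54 and 0.473 TPM in females and 1.26 and 7.70 TPM in males. The libraries held only 3 to 89 reads of *KITLG*, and the spread between pools of the same group reached 9.65-fold in E4.5 females. The log2 fold change of gPGCs against cPGCs was -0.16 ± 0.54, with an adjusted p of 0.924 (limma) and an exact permutation p of 0.792, and no difference was detected.

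*S1PR1* (ENSGALG00000005208, chr8:12067120-12071019, minus strand) had 16.7 and 29.4 TPM in females and 18.9 and 22.1 TPM in males at E2.5. At E4.5 it had 19.1 and 10.6 TPM in females and 20.9 and 5.24 TPM in males, and at E6.5 6.93 and 6.28 TPM in females and 7.79 and 5.37 TPM in males. The E6.5 libraries lay close together and all below the E2.5 libraries, as they were for 8.37% of the genes tested. The mean of *S1PR1* at E6.5 was 30.3% of that at E2.5. At E4.5 the first pools were within the range of the cPGCs and the second pools below it. Endothelial cells also express *S1PR1*. The summed level of the endothelial genes was 5.51 to 16.9 TPM in 7 of the 8 gonadal libraries, below the 18.3 to 27.9 TPM of the cPGCs, and 21.4 TPM in the first E4.5 female pool. *EGFL7* had 1.12 to 6.44 TPM in gPGCs and 6.76 to 14.6 TPM in cPGCs, lower without overlap, as were 1.95% of genes. *PECAM1*, with 2.13 to 15.2 TPM in gPGCs and 6.90 to 13.4 TPM in cPGCs, and *CDH5*, with 0.24 to 1.62 TPM in gPGCs and 0.89 to 3.21 TPM in cPGCs, overlapped. *KDR*, *TIE1* and *ERG*, all low, had higher means in gPGCs (0.22, 0.37 and 0.15 TPM) than in cPGCs (0.07, 0.20 and 0.07 TPM). The median log2 fold change of the 3 endothelial genes tested was -0.67 in gPGCs against cPGCs, beside -0.09 for all genes. At E6.5 against E2.5 it was -1.07, beside -0.11. Their part in the difference was not tested.

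*S1PR1* had the largest fold change of the 5 genes tested in both gonadal against blood and E6.5 against E2.5. Its log2 fold change in gPGCs against cPGCs was -1.15 ± 0.37, with an unadjusted p of 0.00825 and an adjusted p of 0.167 (limma). The exact permutation p was 0.0283, and it was 0.0849 without the second E2.5 female pool and 0.0727 without the second E2.5 male pool. At E6.5 against E2.5 the log2 fold change was -1.56 ± 0.42, 2.96-fold lower in E6.5 gPGCs, with an adjusted p of 0.0801 (limma). Leaving out the first or the second E4.5 male pool brought this adjusted p to 0.0284 and 0.028, and leaving out the first E4.5 male pool brought that of gPGCs against cPGCs to 0.0499. Without both first E4.5 pools the log2 fold change was -1.48 ± 0.27 in gPGCs against cPGCs. At E6.5 against E2.5, where these pools are on neither side, it stayed at -1.56, and only its SE changed, from 0.42 to 0.29. Those pools, left out after the data were seen, were the only gonadal libraries within the cPGC range of *S1PR1*.

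*PDGFRA* (ENSGALG00000013929, chr4:65398425-65431696, minus strand) is the neighbour of *KIT*, from which it is 76588 bases away with 0 genes in between. It had 0 to 0.229 TPM in gPGCs and 0 to 0.0494 TPM in cPGCs, which is 8 reads over the 8 gonadal libraries and 2 reads over the 4 blood libraries. The highest number in any library was 4 reads, in the first E4.5 male pool, and 6 libraries had 0 reads. A count of 3 reads, taken as the limit that a count of 0 allows, would come to 0.102 to 0.186 TPM on this gene (counting error only). *PDGFRA* did not reach 1 TPM in any library and was left out of the fit across genes. In contrast, *KIT* had 752 to 2363 reads a library on the same stretch of chromosome 4.

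Of the 5 genes tested, 0 passed an adjusted p under 0.05 in gPGCs against cPGCs, where limma called 0.996% of all genes (27 higher and 114 lower, or 43 and 98 with median-of-ratios scaling). At an unadjusted p under 0.05, there were 2 of the 5, *CXCR4* and *S1PR1*, and 14.6% of all genes. On limma-voom with the recovered reads, again 0 passed. Again 0 passed at E4.5 against E2.5 (0.184% of genes called), at E6.5 against E2.5 (1.98%) and at E6.5 against E4.5 (0% called by limma and by limma-voom, with 1638 genes at an unadjusted p under 0.05 in limma). At an unadjusted p under 0.05 there was 1 of the 5 at E4.5 against E2.5, *CXCR4*, and 11.1% of all genes. At E6.5 against E2.5 there was also 1, *S1PR1*, and 16.3% of all genes, and at E6.5 against E4.5 there were 0 of the 5 and 11.6%. *CXCR4*, *KIT* and *S1PR1* were lower in every E6.5 library than in any E2.5 library, as were 8.37% of the genes tested, and none of the 5 was lower in every gonadal library than in any blood library, as were 1.95% of genes. Without the first E4.5 pools, which were left out after the data were seen, *KIT* and *S1PR1* passed as lower in gPGCs against cPGCs, where 8.31% of all genes did. The same pair did not overlap between the remaining gonadal libraries and the cPGCs, as did 6.80% of genes. At E6.5 against E2.5, *CXCR4*, *KIT* and *S1PR1* then passed as lower, against 6.10% of genes, and *CXCR4* no longer passed with median-of-ratios scaling (adjusted p = 0.146, limma). Over all genes, the median in gPGCs against cPGCs was -0.09 on the log2 scale, and 0.01 after median-of-ratios scaling.

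**Figure D2:**
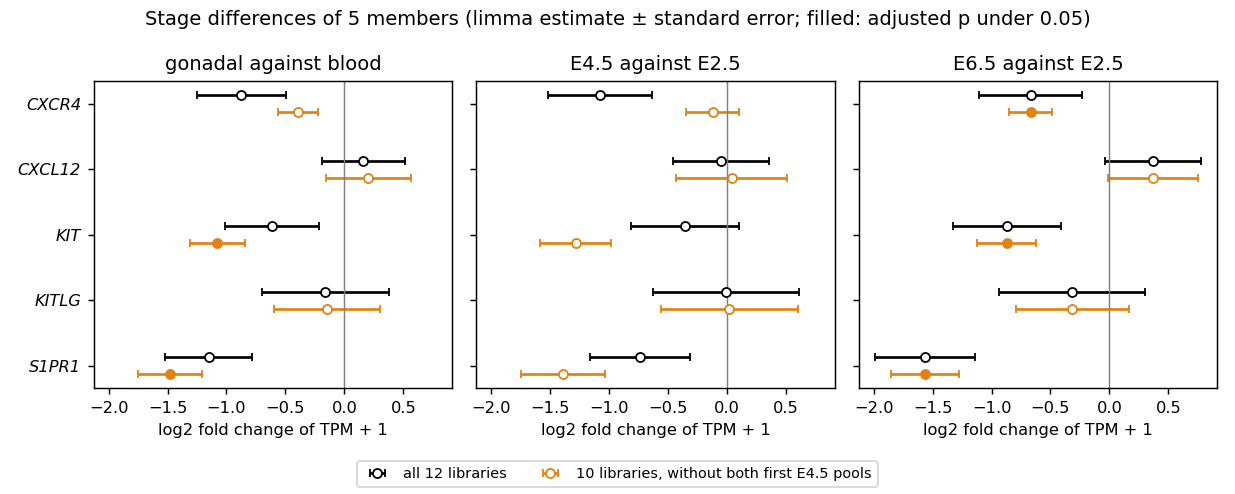
Log2 fold changes of TPM + 1 (horizontal axis) with their standard errors for 5 of the genes in 3 stage comparisons, from all 12 libraries in black and from the 10 libraries without the first E4.5 pools in orange, where a filled point has an adjusted p under 0.05. All black points are open. The first E4.5 pools were left out after the data were seen. In E6.5 against E2.5 this left the estimates in place and changed the standard errors. The orange points of *CXCR4*, *KIT* and *S1PR1* are filled there through that change alone, which cannot count as a further test. The orange points of *KIT* and *S1PR1* are filled in gonadal against blood at -1.08 and -1.48.

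The first and second E4.5 pools of a sex differed widely in *CXCR4*, *KIT*, *S1PR1* and *KITLG*. *CXCR4*, a short gene of 1701 bases, was 4.84-fold lower in the first pool than in the second in females and 2.99-fold lower in males, whereas the median gene of over 1000 and up to 2000 bases differed little. *S1PR1*, of 3116 bases, was 1.80-fold higher in the first pool in females and 3.99-fold higher in males. On the log2 scale this was 0.79 and 1.81, against 0.56 and 0.50 for the median gene of over 3000 and up to 5000 bases. *KITLG*, at few reads, differed by -1.92 in females and by 1.80 in males, in opposite directions. *CXCL12* differed by 0.11 in females and -0.46 in males on the log2 scale. Gene length, depth and pool number varied together here, and their part in the stage differences was not tested.

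**Figure D3:**
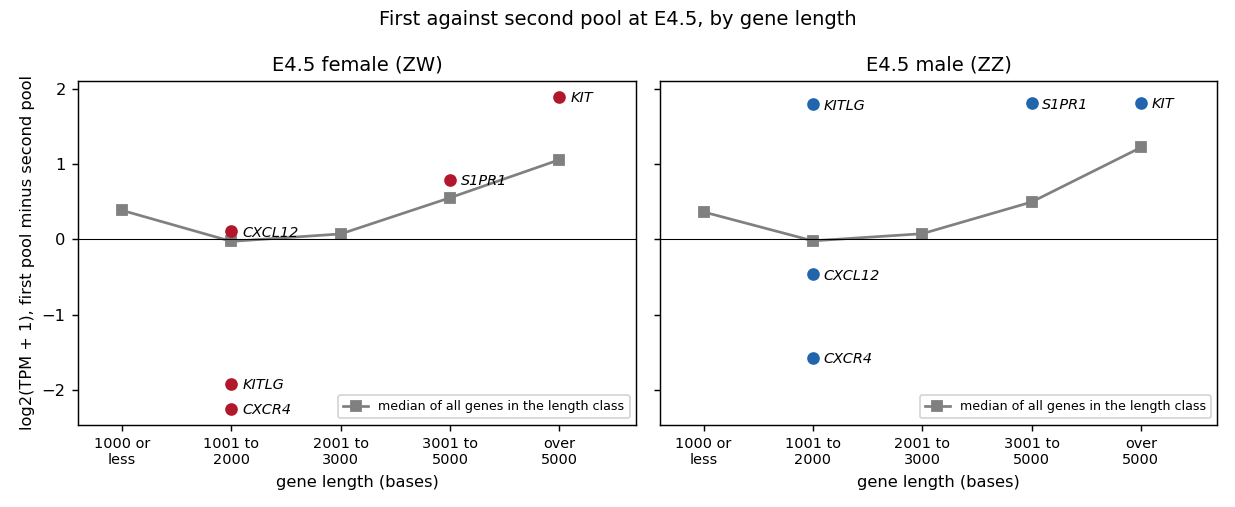
Difference in log2(TPM + 1) between the first and the second E4.5 pool (vertical axis) against gene length class in bases (horizontal axis), for females on the left and males on the right, with the median of all genes averaging at least 5 TPM as grey squares and single genes as coloured points. *KIT* lay above the median of its class in both sexes, at 1.90 and 1.81, and *CXCR4* far below it, at -2.25 and -1.57.

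No difference between the sexes passed in the 5 genes tested. Within E2.5, E4.5 and E6.5, 0 of the 5 passed an adjusted p under 0.05 in females against males (limma, on the 4 libraries of each stage), where 0.242%, 0.0164% and 2.19% of all genes did. At an unadjusted p under 0.05 there were 0 of the 5 at each stage. The share of all genes there was 11.6% in the E2.5 libraries, 0.989% in those of E4.5 and 14.6% in those of E6.5. On the recovered reads, limma-voom again called 0 of the 5. With the replicate number as a block in limma, 0 of the 5 passed again, where 4.55%, 0.417% and 2.73% of all genes did. The change in gPGCs against cPGCs did not pass as different between the sexes in any of the 5, with adjusted p-values of 0.956 to 0.997 (limma interaction, 0% of all genes called, 611 at an unadjusted p under 0.05 and 0 called by limma-voom). At 2 libraries a group these comparisons were imprecise, with standard errors of 0.26 to 1.03 on the log2 scale.

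Across single libraries, *KIT* was more like *S1PR1* than like *CXCR4*, *CXCL12* or *KITLG*. Pearson's r of log2(TPM + 1) between them was 0.850 over the 12 libraries and 0.860 over the 10 without the first E4.5 pools, while that of *CXCR4* with *KIT* was -0.448 and 0.348. Of 7336 candidate genes averaging at least 5 TPM, those most like *KIT* were *REL* (r = 0.984), *FBXW11* (0.980) and *RBM10* (0.980), and those most like *S1PR1* were *LONRF1* (0.971) and *USP24* (0.961). For *CXCR4* they were *CNEP1R1* (0.954), *SEC22A* (0.948) and *CDPF1* (0.943), which were all lower in the first E4.5 pools than in the second, and r fell to 0.763, 0.824 and 0.780 without the first pools. For *CXCL12* they were *NSF* (0.907), *SH3BGRL* (0.876) and *TOLLIP* (0.870). The libraries share their depth and pool number in these correlations, and they are given as a description only.

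Downstream of CXCR4, 16 of 19 listed genes were found, among them the inhibitory G proteins, the GRK kinases that switch the receptor off, and RAC proteins of the moving cell edge. Of 15 tested, 0 passed in gPGCs against cPGCs, where 0.996% of all genes did, with a median log2 fold change of -0.04 beside -0.09 for all genes. Without the first E4.5 pools 0 passed again, and the median was -0.51 beside -0.19 for all genes. *DPP4*, the peptidase that trims CXCL12, had 19.1 to 29.2 TPM in 7 of the 8 gonadal libraries and 96.5 TPM in the second E6.5 female pool, against 10.9 to 41.2 TPM in cPGCs. The same pool had the highest sum of mesonephric epithelium genes (6 of 8 found), at 40.9 TPM, against 0.73 to 9.21 TPM in the other gonadal libraries and 3.29 to 4.19 TPM in cPGCs. Its part in the *DPP4* value was not tested. The names *ACKR3*, *ARRB1* and *ARRB2* had no match and were not analysed here.

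Of 34 listed genes of KIT and PDGF receptor signalling, 30 were found and 27 tested, and 0 passed in gPGCs against cPGCs (0.996% of all genes called), with a median of -0.35 beside -0.09 for all genes. Without the first E4.5 pools the median was -0.53 beside -0.19 for all genes. Calls of the list differed in that fit and are not given, as each E4.5 group then held 1 library. Those pools, left out after the data were seen, held the highest gonadal values of *SPRY2*, *DUSP6*, *ETV5* and *GRB2*, but not of *SOS1*. *GRB2* had 55.6 TPM there in females and 52.6 TPM in males. Its means over all libraries were 21.8 TPM in gPGCs and 21.4 TPM in cPGCs. *SPRY2* and *DUSP6* restrain the RAS and ERK pathway that KIT activates and are themselves induced by it. *ETV5* is a transcription factor induced by the same pathway. These 3 genes were picked out after their values were seen. In E6.5 females *SPRY2* had 24.3 and 16.3 TPM and in E6.5 males 31.8 and 19.2 TPM, against 46.3 and 54.7 TPM in E2.5 females and 71.1 and 67.2 TPM in E2.5 males. The E6.5 libraries lay below the E2.5 libraries for all 3 genes, as they did for 8.37% of the genes tested. Of the same list, *SPRY1* overlapped, with 14.0 to 20.3 TPM at E6.5 and 6.56 to 61.3 TPM at E2.5. So did *ETV4* (4.33 to 14.6 and 1.29 to 33.3 TPM) and *SPRED1* (8.93 to 28.6 and 15.4 to 32.5 TPM). In E6.5 against E2.5, the log2 fold change was -1.37 ± 0.33 for *SPRY2* (adjusted p = 0.053), -1.91 ± 0.51 for *DUSP6* (adjusted p = 0.0775) and -1.47 ± 0.52 for *ETV5* (adjusted p = 0.175, limma). None of the 3 passed in the main fit, where 1.06% of all genes passed as lower. Over 21 other settings of this comparison, *SPRY2* passed in 8, *DUSP6* in 5 and *ETV5* in 0. The first E4.5 pools are on neither side of that comparison. Leaving both out changed only the shared estimate of the spread and the calls that rest on it.

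All 6 genes of the PDGF family were found and 4 tested, with a median log2 fold change of 0.01 in gPGCs against cPGCs. *PDGFA*, a ligand of PDGFRA, was higher in E6.5 gPGCs, with 19.4 and 12.6 TPM in females and 30.5 and 24.3 TPM in males, against 2.39 and 2.76 TPM in E2.5 females and 13.1 and 9.46 TPM in E2.5 males. Within each sex both E6.5 pools exceeded both E2.5 pools, while the lowest E6.5 female lay below the highest E2.5 male. The log2 fold change of *PDGFA* at E6.5 against E2.5 was 1.72 ± 0.36 (adjusted p = 0.0317, limma), and it no longer passed when any single library of these 2 stages was left out, with adjusted p-values of up to 0.17. In gPGCs against cPGCs it was 1.22 ± 0.31 (adjusted p = 0.088), or 1.34 with median-of-ratios scaling (adjusted p = 0.0318). Of all genes, 0.918% passed as higher at E6.5 against E2.5, and 0.306% in gPGCs against cPGCs with median-of-ratios scaling. Without the first E4.5 pools the log2 fold change of *PDGFA* was 1.04 in gPGCs against cPGCs. At E6.5 against E2.5, where those pools are on neither side, it stayed at 1.72. *PDGFC* had 9.90 to 29.4 TPM in gPGCs and 9.76 to 28.2 TPM in cPGCs and *PDGFD* stayed at 4.18 TPM or less, while the receptor *PDGFRB* had at most 0.131 TPM in gPGCs and 0 TPM in cPGCs.

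Around S1PR1, 13 of 16 listed genes were found and 10 tested, with a median of -0.49 in gPGCs against cPGCs beside -0.09 for all genes, and 1 passed, as lower, where 0.805% of all genes did. Without the first E4.5 pools, left out after the data were seen, the median was -0.67 beside -0.19. Calls of the list differed in that fit too and are not given, for the same reason as above. Those pools held the highest *SGPL1* values of all libraries, 27.0 TPM in females and 26.7 TPM in males. The gene that passed with all 12 libraries was *PLPP1*, a Z-linked lipid phosphatase that can dephosphorylate sphingosine-1-phosphate outside the cell. *PLPP1* had 24.0 to 139 TPM in gPGCs and 189 to 271 TPM in cPGCs, lower without overlap, as were 1.95% of genes. Its log2 fold change was -1.97 ± 0.19 (adjusted p = 0.000765), and it was -1.37 ± 0.22 at E4.5 (adjusted p = 0.0394) and -2.57 ± 0.22 at E6.5 against E2.5 (adjusted p = 0.000286, limma). Of all genes, 0.148% passed as lower at E4.5 and 1.06% at E6.5 against E2.5. The call in gPGCs against cPGCs was lost in each sex alone, with an adjusted p of 0.0721 in females and 0.123 in males (limma). The call at E4.5 was lost under 15 of 21 other settings, among them median-of-ratios scaling (adjusted p = 0.0947), and also without both first E4.5 pools (0.0658). Among the other receptors of the family, *S1PR3* had 0.704 to 34.9 TPM in gPGCs and 14.5 to 40.8 TPM in cPGCs, and *S1PR2* and *S1PR4* stayed below 0.5 TPM. *SPHK1* and *SGPL1*, which make and break down the lipid, overlapped between gPGCs and cPGCs, with 0.457 to 6.64 and 4.95 to 27.0 TPM in gPGCs and 1.23 to 6.32 and 10.9 to 19.9 TPM in cPGCs. *MFSD2B*, the exporter of the lipid from red blood cells and platelets in mice, had 0 to 0.963 TPM in gPGCs and 0 to 18.2 TPM in cPGCs.

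**Figure D4:**
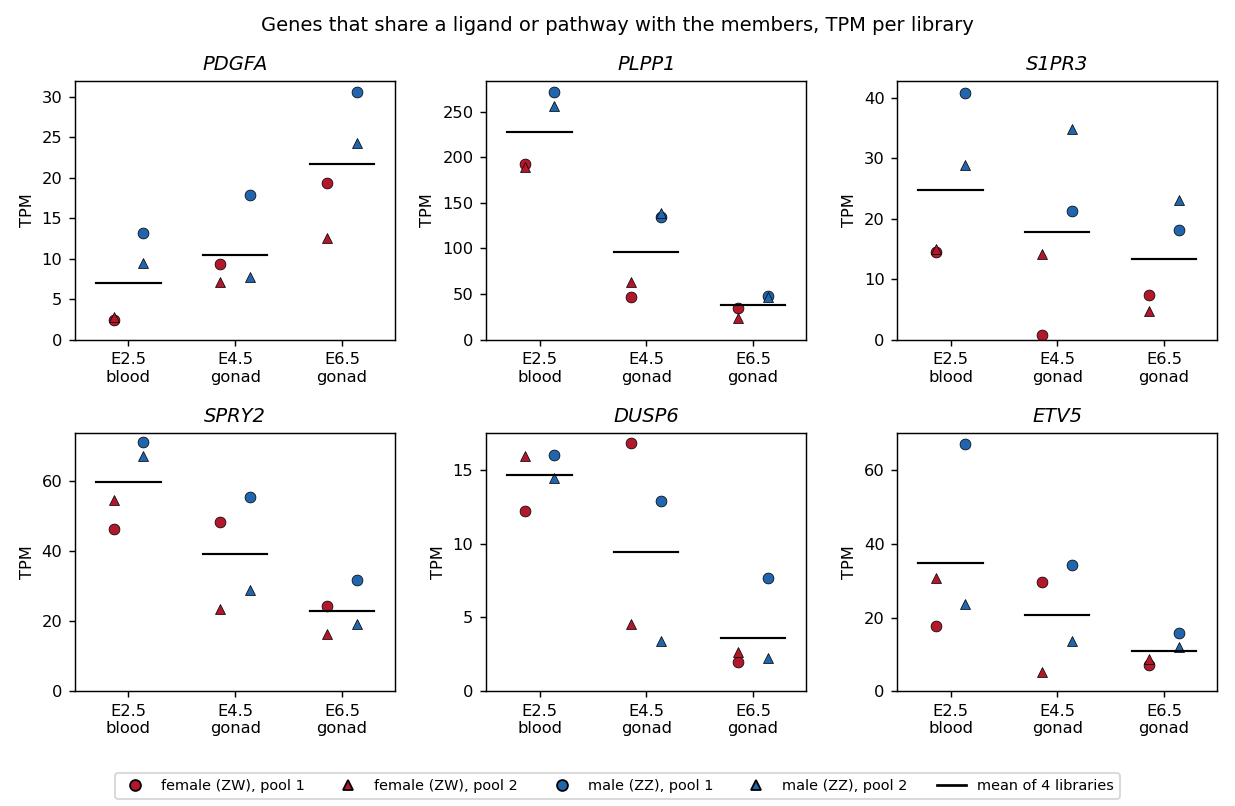
TPM (vertical axis, a separate scale for each gene) of 6 genes that share a ligand or pathway with the receptors, in each of the 12 libraries by stage, with females in red, males in blue, first pools as circles, second pools as triangles and the mean of a stage as a line. *PLPP1* was lower in all 8 gonadal libraries than in any blood library, as were 1.95% of genes, and *PDGFA* was higher at E6.5 than at E2.5 in both sexes.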

How the data were processed

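Total RNA of SSEA-1-sorted PGC pools was amplified with the SMART-seq v4 kit, and libraries were made with Nextera XT. Per the submitters' notes and the paper, the authors used FastQC 0.11.9, Trimmomatic 0.39, Trim Galore 0.6.6, cutadapt 3.1, STAR 2.7.3a on GRCg6a and featureCounts 2.0.1, and deposited TPM for 24356 genes, with gene lengths and positions. TPM times length was a whole multiple of 1 read (within 0.1) in 100% of the values checked up to 1000 reads, which gave reads per gene. Amplification copies are not independent molecules.

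Genes that reached 1 TPM in 2 or more libraries were tested with limma 3.58.1 (R 4.3.3, eBayes with a trend) on log2(TPM + 1), with 6 group means. A gene passed at a Benjamini-Hochberg adjusted p under 0.05 over all genes tested. Sexes were compared within a stage on its 4 libraries. Single genes were tested between gPGCs and cPGCs by exact permutation of mean log2(TPM + 1), 6 tests without correction for their number. Where pooled embryos define a library, p-values measure the spread between pools. limma was tested on simulated data. The 6 genes and the lists were chosen with earlier results of these data known. Genes named were the 6, list genes that passed or share a ligand, the 3 most alike genes (1 of them is not reported here), and markers. Alternatives were another pseudocount, filter, scaling, limma-voom on the recovered reads, the replicate number as a block, each sex alone, an erythroid-free scale and each library left out. Leaving out both first E4.5 pools was added after seeing the data. Figures were drawn with matplotlib 3.10.9.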

Additional observations from a re-analysis of the deposited data

Results flagged for a closer look

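Chance flags about 1 in 20 groups where groups are independent and values normal, which was not so here. The 24 groups of libraries examined for a library far from the others overlapped, and 4 held one. *CXCL12* had 43.8 TPM in the first E6.5 female pool, apart from the other 7 gonadal libraries at 10.7 to 25.6 TPM. *KIT* had 25.2 TPM in the second E6.5 female pool, below the other 3 E6.5 libraries at 34.2 to 35.3 TPM. *PDGFRA* had 0.229 TPM in the first E4.5 male pool and 0.0831 TPM in the first E6.5 male pool, which are 4 and 2 reads.

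The *CXCL12* level at E4.5 relative to the E2.5 mean of the same sex was 1.49-fold in females, with both pools above it, and 0.56-fold in males, with both pools below it. This difference between the sexes was not tested at E4.5. In males the pools of these stages overlapped, with 33.7 and 12.2 TPM at E2.5 and 10.7 and 15.1 TPM at E4.5. In females they had 15.1 and 17.4 TPM at E2.5 and 25.1 and 23.2 TPM at E4.5. Over both gonadal stages, the interaction was 0.79 ± 0.71 on the log2 scale (adjusted p = 0.956, limma).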

How the results depend on the processing

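The count of the 6 genes that passed stayed at 0 under all 21 other settings for E6.5 against E4.5, and under all alternatives run for the sexes and their interaction. With 1 library left out, it ran from 0 to 1 for gonadal against blood, E4.5 against E2.5 and E6.5 against E2.5. *CXCR4* was the gene at E4.5 without the second female E4.5 pool (adjusted p = 0.0484, limma), and *S1PR1* in the others. Without both first E4.5 pools, each E4.5 group held 1 library. At E6.5 against E2.5 this changed only the shared estimate of the spread, so passes there cannot count as a further test. Over all genes, 141 passed in gonadal against blood, 26 to 230 with 1 library left out (beyond 1.5 times apart from 188 without the first male E4.5 pool), 1 in females alone, 7 in males alone, 1538 without both first E4.5 pools and 1845 with median-of-ratios scaling added, on other numbers of libraries. For the other comparisons the count ran from 0 to 839 with 1 library left out, lowest at E6.5 against E4.5 and in the interaction and highest in E6.5 females against males. The cause was not tested.

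The exact permutation p of *CXCR4* was 0.0162 with all 12 libraries and 0.0381 without both first E4.5 pools. With median-of-ratios scaling the exact permutation p was 0.141 and 0.333. That of *KIT* was 0.178 with all 12 libraries and 0.0485 to 0.327 with 1 library left out. Without both first E4.5 pools it was 0.00952, the smallest possible, with either scaling. Those pools were the only gonadal libraries not below every cPGC library, so leaving them out fixed this p, which cannot count as a test. Leaving out 1 library gave 0.0182 to 0.0849 for *S1PR1*, 0.230 to 0.988 for *CXCL12* and 0.461 to 0.982 for *KITLG*. That of *PDGFRA* was 0.81 without both first E4.5 pools, with the sign turned. Log2 fold changes that turned sign without 1 library ran from -0.19 to 0.51 for *CXCL12* and -0.40 to 0.081 for *KITLG* in gonadal against blood, and -0.83 to 0.12 for *KIT* at E4.5. In males alone they were -0.23 for *CXCL12* and 0.061 for *KITLG*, and without both first E4.5 pools with median-of-ratios scaling 0.033 for *KITLG* and 0.21 for *CXCR4* at E4.5.

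The deviations of same-numbered pools correlated at 0.633 between E4.5 females and males, and at -0.181 to 0.378 between the other groups. The numbers were not taken as pairs in the main fits, which therefore leave out what same-numbered pools shared at E4.5. With the replicate block, 180 genes and 0 of the 6 passed in gonadal against blood, and *S1PR1* at E6.5 against E2.5 had an adjusted p of 0.0651 (limma). With 2 pools a group, the depth of *KITLG* (3 to 89 reads) and *PDGFRA* limits what could be seen.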
